A study of Bos taurus with 138 samples.

Results

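The BCL2 family was described at the level of mRNA in bovine (Bos taurus) oocytes and preimplantation embryos. The 10 genes examined were the anti-apoptotic members BCL2, BCL2L1 (encoding BCL-XL), BCL2L10 and MCL1, the pore-forming effectors BAX and BAK1, and the BH3-only members BID, BAD, BBC3 (PUMA) and BCL2L11 (BIM). They were taken by symbol from a table of 16706 gene symbols. Of the 10 genes, 8 had a row, while BCL2L10 and BBC3 were matched by neither symbol nor synonym and were not analysed here. Of the 8, 7 passed the filter on low counts and 1, BCL2, did not.

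Proteins of this family decide whether the outer mitochondrial membrane stays intact. Once activated, BAX and BAK1 form pores in it, through which cytochrome c leaves and starts the caspase cascade. BCL2, BCL-XL and MCL1 hold BAX and BAK1 in check, and BH3-only proteins bind these guardians or activate the effectors directly. In early embryos, transcripts stored in the oocyte are gradually replaced by those of the embryonic genome, whose major activation in cattle begins around the 8-cell stage.

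The groups were GV oocytes (germinal vesicle stage, immature), MII oocytes (metaphase II, matured in vitro), and in vitro fertilised embryos at the 2-cell, 8-cell, morula and blastocyst stages. GV oocytes came from cumulus-oocyte complexes of slaughterhouse ovaries, and 1 Holstein bull provided the semen. No genotype, age or experimental treatment separated the groups, and all oocytes and embryos were kept in culture with cycloheximide, which holds ribosomes on mRNA, shortly before collection. The drug was also in the lysis buffer and the gradients. Lysates were spread over sucrose gradients collected as 10 fractions, F1 to F10, in which mRNA with more ribosomes sediments further, with n = 2 gradients per stage (A and B) and 120 fraction libraries. Whole oocytes or embryos gave n = 3 transcriptomes per stage (A, B and C), 18 libraries in all, and each library pooled many oocytes or embryos from a shared batch, so p-values measure the spread between such pools. F1 and F2 hold free RNA, F3 to F5 monosomes and F8 to F10 polysomes, and the counts of F8 to F10 were summed per gradient into polysome pools. Levels are CPM, counts scaled to library size with TMM factors, and are relative to all mRNA of a library rather than per embryo. In such bulk material, fewer cells of a type and less RNA per cell cannot be told apart.

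Totals of expected counts were 1229382 to 17342859 in fraction libraries (median 10334106) and 3269386 to 11812567 in transcriptomes (median 10399576). Blastocyst transcriptomes were the shallowest, with 3269386 to 5256282 counts. The labelled stages were checked against marker lists. The summed level of 10 oocyte markers (GDF9, ZP2 and others) was 23530 to 25710 CPM in GV transcriptomes, 14800 to 15970 in 2-cell, 522 to 994 in 8-cell and 54.3 to 866 in blastocyst transcriptomes. The sum of 6 trophectoderm markers (KRT8, KRT18 and others) was 5180 to 6031 CPM in blastocyst transcriptomes against 260 to 469 in morulae, although CDX2 itself was at 7.05 CPM. Of 6 inner cell mass markers, 5 had a row, and their sum was 400 to 523 CPM in morula and 156 to 199 in blastocyst transcriptomes. The 12 cumulus or granulosa cell markers, which stand for the cells stripped from the oocyte, summed to 563 to 717 CPM in GV, 636 to 928 in MII and 420 to 450 in 2-cell transcriptomes. In 8-cell transcriptomes, replicate A stood apart with a sum of 1356 CPM, against 320 and 345 in B and C, and values without that library are given where they matter. Blastocyst transcriptome A also stood apart, with an oocyte marker sum of 866 CPM against 54.3 and 91.8 in B and C. The morula polysome pools A and B differed, at 95.3 and 516 CPM for oocyte and 58.5 and 230 for cumulus markers. Their trophectoderm sums were 2137 and 5177 CPM. That sum was 858.2 to 887.7 CPM in GV and 1272 to 1338 in MII polysome pools. In GV and MII transcriptomes it was 146.5 to 151.5 and 132.5 to 148.3 CPM.

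Between consecutive stages, 17 of 35 tests of the 7 members in transcriptomes passed an edgeR adjusted p of 0.05. From GV to MII oocytes, 4 of the 7 passed, where 18.6% of all 14612 genes did, and from MII to 2-cell embryos 4 passed against 13.1%. From the 2-cell to the 8-cell stage, 4 members passed against 52.3% of all genes, a share that is close to the background. From 8-cell to morula 3 passed against 15.4%, and from morula to blastocyst 2 passed against 23.2%. The median log2 change of the members was -1.12, 1.17, 0.64, 0.98 and 0.30 over these 5 steps, with a median of all genes between -0.05 and 0.03. Neighbouring steps share the libraries of the stage between them, so a fall followed by a rise rests partly on the same samples.

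**Figure D1:**
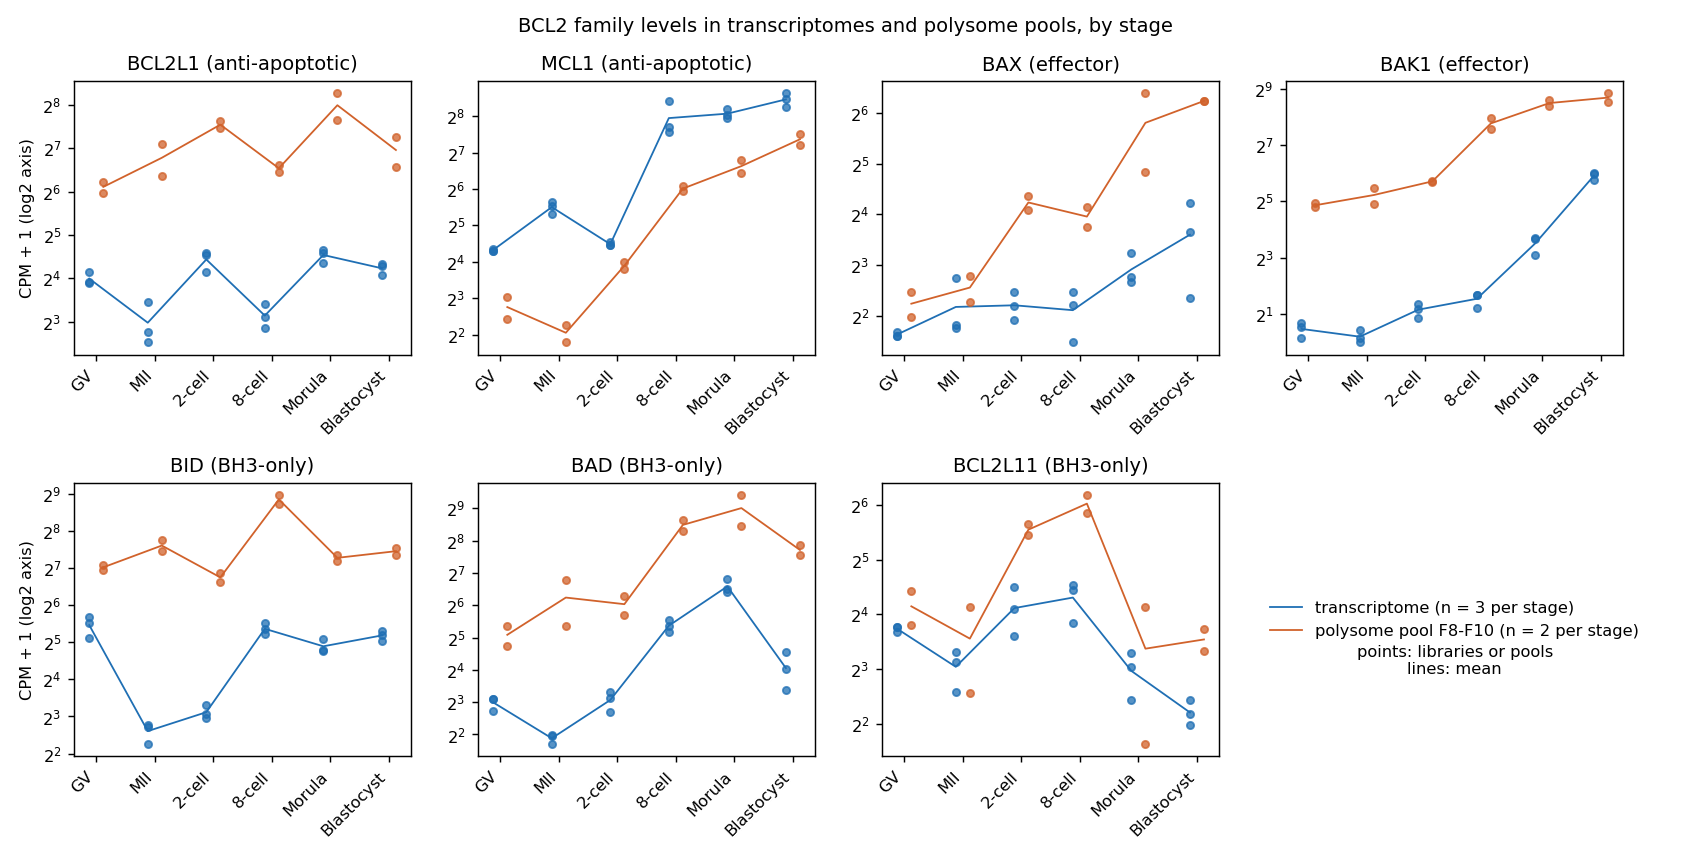
Level of the 7 testable members (CPM + 1, log2 axis) at 6 stages, with points for each transcriptome (blue, n = 3) and polysome pool (orange, n = 2) and lines through the means. Orange lies above blue for BAK1 at every stage, whereas for MCL1 blue lies above orange at every stage.

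MCL1, an anti-apoptotic protein with a short half-life, was the member with the largest rise at the 8-cell stage. Its transcriptome level was 20.8, 22.4 and 20.8 CPM in 2-cell embryos and 343, 206 and 189 CPM in 8-cell embryos. All 8-cell libraries therefore lay far above all 2-cell libraries. The change was 11.5-fold (log2 3.53 ± 0.28 SE, edgeR adjusted p = 4.5e-10). The highest of the 8-cell values came from the library with the high cumulus marker sum, and without it the log2 change was 3.21 ± 0.26 (edgeR adjusted p = 1.7e-09). The level then held at 248 to 294 CPM in morulae and 305 to 394 CPM in blastocysts, and neither of these steps passed the test (log2 0.12 ± 0.25 and 0.39 ± 0.25).

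Before fertilisation, MCL1 rose from 18.8, 19.6 and 18.8 CPM in GV oocytes to 49.2, 45.3 and 38.4 CPM in MII oocytes, a 2.33-fold change (edgeR adjusted p = 0.0012). By the 2-cell stage it was lower again (log2 -1.05 ± 0.25, edgeR adjusted p = 0.0060). This step lost its call when libraries were scaled by totals alone (log2 -0.56, edgeR adjusted p = 0.15), a scaling that also shifted the median of all genes by 0.465. Of the 12 cumulus markers, 4 were higher and 1 lower from GV to MII oocytes, where 18.6% of all genes passed, and 4 were lower from MII oocytes to 2-cell embryos, where 13.1% passed. From the 2-cell to the 8-cell stage 7 of the 12 were higher and 2 lower, where 52.3% of all genes passed. Their part in these results was not tested.

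BCL2L1, whose long protein product is the guardian BCL-XL, followed another course. It was at 16.8, 14.2 and 13.9 CPM in GV, 5.84, 10.0 and 4.76 in MII, 23.0, 16.7 and 22.3 in 2-cell, and 7.63, 6.27 and 9.57 CPM in 8-cell transcriptomes. The ranges of neighbouring stages did not overlap at any of these steps. BCL2L1 fell 2.17-fold into MII (edgeR adjusted p = 0.012), rose 2.99-fold into the 2-cell stage (edgeR adjusted p = 0.0010) and fell 2.64-fold into the 8-cell stage (edgeR adjusted p = 0.00059). The first of these calls was lost without GV replicate A, MII A or MII C (edgeR adjusted p = 0.051, 0.061 and 0.087). In morulae it stood at 19.6 to 24.03 CPM, 2.84-fold above 8-cell embryos (edgeR adjusted p = 0.0016), and in blastocysts at 15.8 to 19.1 CPM. At the 8-cell stage these 2 guardians thus moved in opposite directions, MCL1 up and BCL2L1 down. Ordered by mean level, the morula, 2-cell, blastocyst and GV transcriptomes overlapped from one to the next, and MII and 8-cell transcriptomes lay below them.

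BCL2, the founding member, was at or near the detection limit. It had counts above 0 in 18 libraries, 5 of them among the 18 transcriptomes, with at most 6 counts in 1 library (MII F1, gradient A) and 35 counts in all. The highest count in a transcriptome was 2. A floor of 3 counts corresponds to 0.254 to 0.918 CPM in transcriptomes and 0.173 to 2.44 CPM over all libraries, so BCL2 mRNA below those levels was not detectable at this depth. Intervals and floors of this kind cover counting error only. When the filter on low counts was dropped, 0 of 27 edgeR tests of BCL2 passed.

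BAK1 and BAX, the 2 effectors, differed in their course. BAK1 was barely detected in transcriptomes of oocytes, with 6, 6 and 1 counts in GV and 3, 1 and 0 counts in MII oocytes. It reached 0.837, 1.28 and 1.58 CPM in 2-cell embryos, a rise of 2.998 ± 0.586 on the log2 scale that rests on 4 counts in MII oocytes (edgeR adjusted p = 0.00099). After the 8-cell stage (2.23, 1.34 and 2.17 CPM) it rose 5.43-fold to 12.04, 11.7 and 7.54 CPM in morulae (edgeR adjusted p = 0.00014). It rose another 5.65-fold to 62.6, 52.7 and 61.8 CPM in blastocysts (edgeR adjusted p = 2.9e-05). The ranges of 8-cell embryos, morulae and blastocysts were apart. The trophectoderm marker sum rose over the same last step, and its part in the result was not tested.

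BAX transcriptome levels passed the test at none of the 5 steps, with log2 changes between -0.12 and 0.98. Its libraries ranged from 2.05 to 2.23 CPM in GV oocytes, from 1.79 to 8.49 CPM between MII and morula, and in blastocysts at 17.6, 4.15 and 11.6 CPM, the highest in the library with the high oocyte marker sum. Neighbouring stages in the order of their means overlapped except 2-cell embryos (2.80 to 4.51 CPM) and morulae (5.39 to 8.49 CPM). A difference smaller than this spread between replicates was not detectable.

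BID, a BH3-only protein that is cut by caspase 8 to become active, had its largest transcriptome change during oocyte maturation. GV oocytes held 45.3, 50.5 and 33.9 CPM and MII oocytes 3.78, 5.88 and 5.59 CPM, a log2 change of -3.08 ± 0.25, or an 8.49-fold fall (edgeR adjusted p = 5.1e-09). The level stayed at 6.79 to 8.82 CPM in 2-cell embryos and rose 5.25-fold to 44.6, 36.5 and 39.8 CPM in 8-cell embryos (edgeR adjusted p = 2.2e-08). Morulae and blastocysts held 26.4 to 33.1 and 32.0 to 38.6 CPM without a further call. The ranges of GV oocytes, 8-cell embryos and blastocysts overlapped.

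BAD, a BH3-only protein kept inactive by phosphorylation and 14-3-3 binding, peaked in morulae. Its transcriptome values were 89.6, 83.9 and 111 CPM there, against 35.2, 40.2 and 45.3 CPM in 8-cell embryos and 22.3, 9.33 and 15.2 CPM in blastocysts. These 3 ranges were apart from each other. BAD fell 2.58-fold from GV to MII oocytes, rose 2.74-fold into 2-cell embryos, 5.45-fold into 8-cell embryos and 2.36-fold into morulae, and fell 6.10-fold into blastocysts (edgeR adjusted p = 0.012, 0.011, 7.7e-06, 0.018 and 1.8e-05). It was the only member with a call at every step. Its last call held without blastocyst transcriptome A, which gave the highest of the blastocyst values. Leaving out 1 library ended its calls at 3 of the 5 steps: GV to MII without MII replicate C (edgeR adjusted p = 0.066), MII to 2-cell without 2-cell C or MII C (0.060 and 0.067), and 8-cell to morula without 8-cell A, 8-cell B or morula C (0.072, 0.055 and 0.073).

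BCL2L11, encoding BIM, an activator that binds all guardians, passed the test at none of the 5 transcriptome steps. Its libraries lay between 11.8 and 12.6 CPM in GV, 4.996 and 8.92 in MII, 11.1 and 21.8 in 2-cell, 13.4 and 22.1 in 8-cell, 4.39 and 8.85 in morula and 2.94 and 4.40 CPM in blastocyst transcriptomes. The step from 8-cell to morula, where the ranges were apart, had a log2 change of -1.46 ± 0.56 (edgeR adjusted p = 0.077), and it passed when only the 18 transcriptomes were fitted (-1.46, edgeR adjusted p = 0.00087). DESeq2 also called it (-1.60, adjusted p = 0.021).

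**Figure D2:**
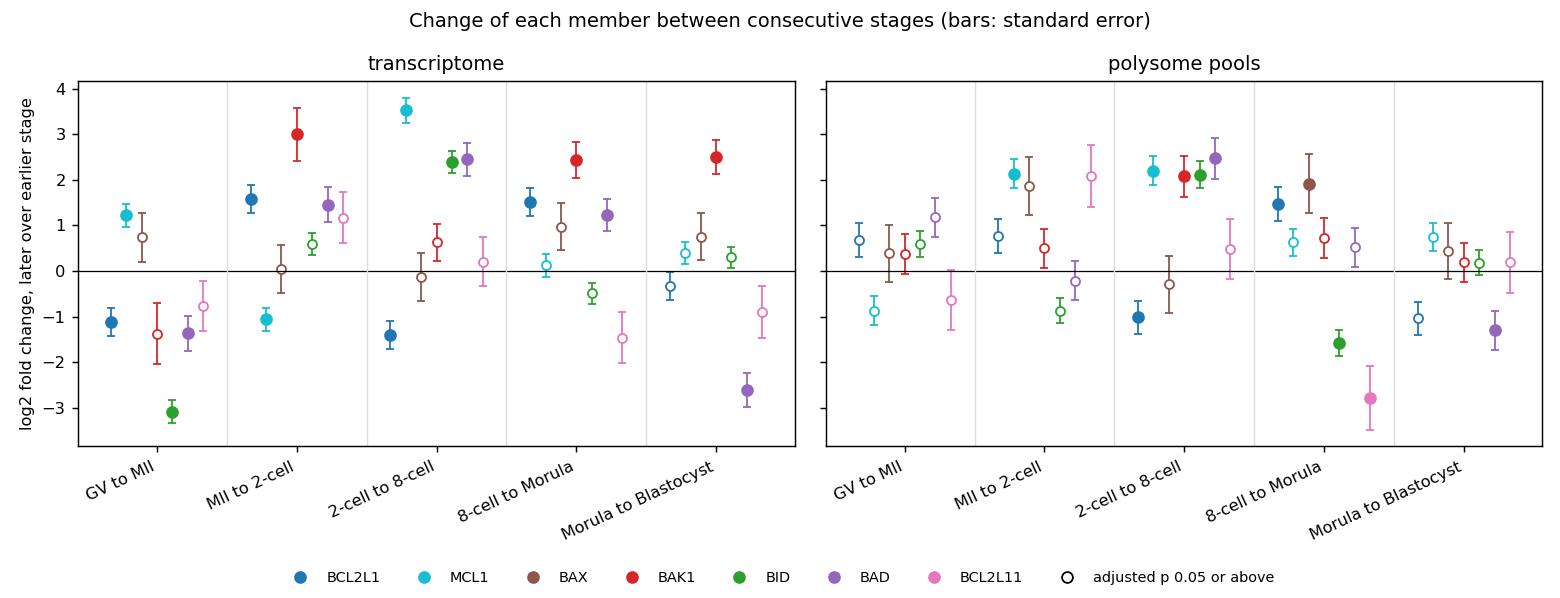
Log2 change of each member between consecutive stages (later over earlier) in transcriptomes (left) and polysome pools (right), with standard errors from the edgeR fit; filled points passed an adjusted p of 0.05. The MCL1 point of 3.53 at 2-cell to 8-cell in transcriptomes is the highest, and polysome pools hold 0 filled points from GV to MII.

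In polysome pools, 11 of 35 tests between consecutive stages passed, 7 upward and 4 downward, where 10.6% and 11.9% of all gene tests did. From GV to MII oocytes, 0 of 7 members passed edgeR, where 5.43% of all genes did. At an unadjusted p under 0.05 there were 3, and DESeq2 called 2. From MII to the 2-cell stage 1 passed against 8.65% of all genes, while 5 members had an unadjusted p under 0.05 and DESeq2 and the likelihood ratio test each called 4. From 2-cell to 8-cell 5 against 47.3%, from 8-cell to morula 4 against 37.0%, and from morula to blastocyst 1 against 14.2%.

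MCL1 in polysomes rose at the steps into the 2-cell and 8-cell stages. The pools held 4.36 and 7.13 CPM in GV, 2.45 and 3.83 in MII, 14.8 and 12.8 in 2-cell, 66.2 and 60.8 in 8-cell, 109 and 86.6 in morula and 181 and 147 CPM in blastocyst gradients. From MII oocytes onward no stage overlapped with the next. The step into the 2-cell stage was 4.40-fold (edgeR adjusted p = 0.00026) and that into the 8-cell stage 4.59-fold (edgeR adjusted p = 7.2e-06). The other steps did not pass, with log2 changes of -0.87 ± 0.31 into MII oocytes, 0.63 ± 0.31 into morulae and 0.74 ± 0.31 into blastocysts. The first of these steps went against the transcriptome, in which MCL1 was lower in 2-cell embryos than in MII oocytes, and the difference between the 2 changes was itself past the threshold (log2 3.19 ± 0.41, edgeR adjusted p = 0.00024). With F1 and F2 in place of polysomes, the step into the 2-cell stage was 0.74 and did not pass (edgeR adjusted p = 0.37).

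BAK1, BID and BAD also rose in polysomes from the 2-cell to the 8-cell stage. BAK1 pools went from 51.7 and 50.9 to 244 and 188 CPM, a 4.22-fold change (edgeR adjusted p = 0.00059). BID pools went from 117 and 97.4 to 425 and 502 CPM, a 4.33-fold change (edgeR adjusted p = 3.5e-06). BAD pools went from 51.2 and 77.7 to 316 and 399 CPM, a 5.55-fold change (edgeR adjusted p = 0.00010). BCL2L1 pools fell from 175 and 197 to 97.8 and 86.3 CPM, a change of -1.01 ± 0.37 on the log2 scale (edgeR adjusted p = 0.027). The BCL2L1 call was lost without any 1 of the 2-cell or 8-cell pools (log2 between -1.10 and -0.92).

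After the 8-cell stage, BCL2L1 pools rose 2.76-fold to 307 and 201 CPM in morulae (edgeR adjusted p = 0.0038) while BID pools fell 2.997-fold to 146 and 164 CPM (edgeR adjusted p = 0.00019). BAX pools rose from 12.5 and 16.6 to 82.3 and 27.3 CPM (log2 1.91 ± 0.64, edgeR adjusted p = 0.023), and without the higher morula pool the log2 change was 0.92 (edgeR adjusted p = 0.35). BCL2L11 pools fell from 71.4 and 56.7 to 16.6 and 2.10 CPM (log2 -2.78 ± 0.71, edgeR adjusted p = 0.0039). The 2 morula pools of BCL2L11 differed widely, and without pool A or pool B the log2 change was -4.92 or -1.92. BAD pools went from 677 and 349 CPM in morulae to 186 and 231 CPM in blastocysts (log2 -1.30 ± 0.43, edgeR adjusted p = 0.045). Of 30 fits that each left out 1 library, 16 lost this call, among them those without either blastocyst pool. Without the higher morula pool the BAD change was -0.72 and did not pass (edgeR adjusted p = 0.34).

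Polysome pools were then compared with the transcriptome of the same stage, the measure by which translational selection was approached in this study. Of 42 tests of the 7 members, 36 passed, 31 with a higher and 5 with a lower level in polysomes, beside 26.1% and 23.8% of all gene tests. By stage, GV had 5 members past the threshold, MII 5, 2-cell 6, 8-cell 7, morula 6 and blastocyst 7. The shares of all genes were 39.8%, 57.5%, 51.0%, 59.1%, 51.7% and 40.1%. The median log2 difference of the members was 1.58, 3.98, 3.12, 3.15, 2.44 and 2.74, beside medians of all genes between -0.26 and 0.18.

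BAK1 had the largest difference of the members, in spite of its low level in whole oocytes. Polysome pools held 26.7 and 29.5 CPM in GV and 43.7 and 29.0 CPM in MII oocytes, where transcriptomes held 0.615 CPM or less. The log2 difference was 6.13 ± 0.49 in GV, 7.87 ± 0.56 in MII, 5.37 ± 0.45 in 2-cell, 6.81 ± 0.47 in 8-cell, 5.10 ± 0.43 in morula and 2.79 ± 0.39 in blastocyst stages, and each passed (the highest edgeR adjusted p was 5.3e-06). The value in MII oocytes rests on 4 transcriptome counts. From morula to blastocyst the difference shrank (log2 change -2.31 ± 0.56, edgeR adjusted p = 0.0099), as the transcriptome level rose and the pools moved from 381 and 333 to 364 and 452 CPM.

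BCL2L1, BID and BAD were higher in polysomes than in the transcriptome at all 6 stages. BCL2L1 differed by 2.19 to 3.98, BID by 1.58 to 5.26 and BAD by 2.24 to 4.79 on the log2 scale. All 3 had their widest difference in MII oocytes. BID pools, for instance, held 175 and 215 CPM there, where transcriptomes held 3.78 to 5.88 CPM, a 38.3-fold difference (edgeR adjusted p = 9.6e-13). The transcriptome of BID had fallen between GV and MII oocytes while its pools had gone from 136 and 122 to 175 and 215 CPM, and the change in the difference was 3.68 ± 0.38 (edgeR adjusted p = 1.4e-06).

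BAX and BCL2L11 passed at fewer stages. BAX differed by 2.29 ± 0.57 in 2-cell, 2.12 ± 0.57 in 8-cell, 3.06 ± 0.58 in morula and 2.74 ± 0.58 in blastocyst stages, and in oocytes by 0.82 ± 0.58 and 0.47 ± 0.58 without passing. BCL2L11 differed by 1.49 ± 0.60 in 2-cell, 1.77 ± 0.60 in 8-cell and 1.55 ± 0.62 in blastocyst stages, with edgeR adjusted p of 0.040, 0.014 and 0.049. The 8-cell call was lost without 8-cell transcriptome A (1.57, edgeR adjusted p = 0.054). The blastocyst call was lost in 24 of 30 fits that each left out 1 library, among them that without blastocyst transcriptome A (1.42, edgeR adjusted p = 0.12). In morulae its difference was 0.45 ± 0.60, and 1 pool set its sign, since without pool A it was -1.72 (edgeR adjusted p = 0.041).

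MCL1 was the member with a lower level in polysomes. The log2 difference was -1.73 ± 0.30 in GV, -3.82 ± 0.33 in MII, -0.63 ± 0.29 in 2-cell, -1.95 ± 0.30 in 8-cell, -1.45 ± 0.29 in morula and -1.10 ± 0.29 in blastocyst stages. All passed but the 2-cell value (edgeR adjusted p = 0.070). Without 8-cell transcriptome A, the 8-cell value was -1.64 ± 0.28 (edgeR adjusted p = 5.0e-05). In MII oocytes pools held 2.45 and 3.83 CPM and transcriptomes 38.4 to 49.2 CPM, a 14.1-fold difference that had widened from GV oocytes (log2 change -2.09 ± 0.41, edgeR adjusted p = 0.0012).

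The change between stages in polysomes was also tested against the change in the transcriptome, in one model. Of 35 tests, 10 passed, 4 upward and 6 downward, beside 4.88% and 4.99% of all gene tests. From GV to MII oocytes 4 of 7 members passed, where 10.6% of all genes did, from MII to 2-cell 2 against 1.81%, from 2-cell to 8-cell 1 against 12.2%, from 8-cell to morula 2 against 12.5%, and from morula to blastocyst 1 against 12.3%. With F1 and F2 in place of polysomes, 5 of 35 passed, while summed calls over all genes went from 7214 to 9769. The MCL1 value from MII to the 2-cell stage was then 1.74 (edgeR adjusted p = 0.14).

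Gradient libraries of F1 and F2, which carry free RNA, and of F3 to F5 were set against the same transcriptomes, a comparison chosen after seeing the data. With F1 and F2, 29 of 42 member tests were higher and 5 lower, beside 24.6% and 24.4% of all gene tests. With F3 to F5, 35 were higher and 6 lower, beside 29.9% and 25.8%. BAK1 was higher in F1 and F2 by 6.93 ± 0.77 in GV and by 5.27 ± 0.69 in 8-cell stages, while in blastocysts the difference was -0.10 ± 0.62. For MCL1 the log2 difference of F1 and F2 was -3.02 ± 0.46 in MII and -3.94 ± 0.48 in 8-cell stages. Free RNA fractions thus lay on the same side of the transcriptome as polysomes for these genes at these stages, apart from BAK1 in blastocysts.

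**Figure D3:**
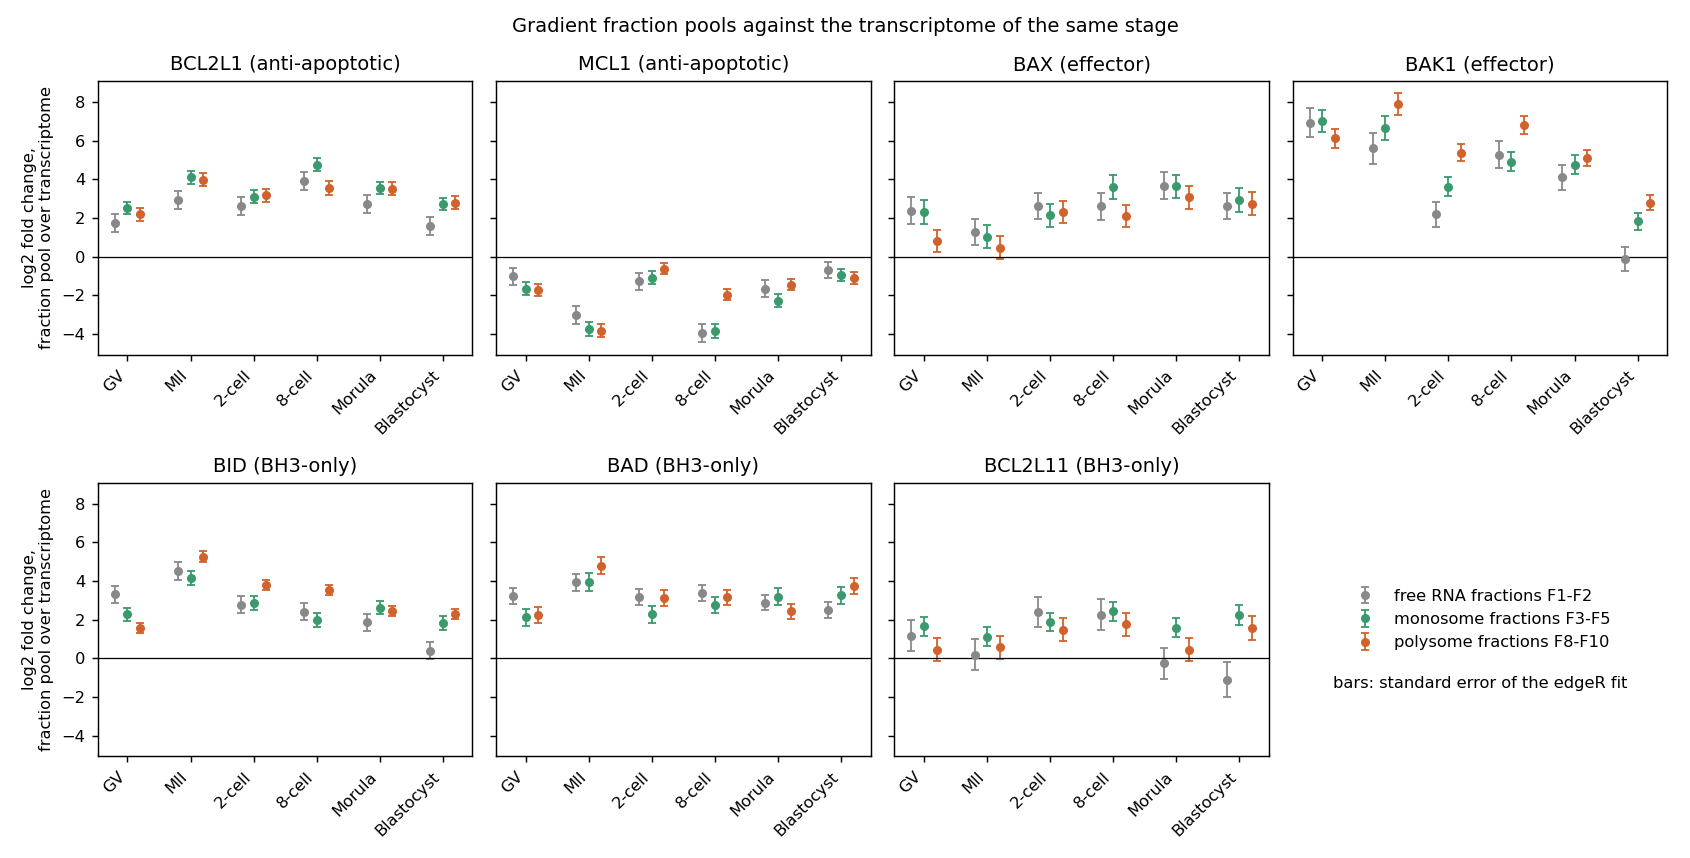
Log2 fold change of pooled gradient fractions over the transcriptome of the same stage for each member, with standard errors from the edgeR fit. The polysome (orange), monosome (green) and free RNA (grey) pools lie on the same side of 0 for BCL2L1, BAX, BAD and BID (above) and MCL1 (below) at all stages, while BAK1 in free RNA of blastocysts is at -0.10.

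The position of each mRNA within the gradient does not depend on the transcriptome libraries. It was described by the centre, the mean fraction number weighted by CPM over F1 to F10, and by the share of the summed CPM in F8 to F10. CPM is scaled within each fraction library, so neither measure gives the amount of an mRNA in a fraction. Over all genes the median centre was 5.19 to 5.91 in the 12 gradients. Of 42 centres of the members (mean of 2 gradients), 22 lay above the median of all genes.

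BAK1 and BID had lower centres in GV oocytes than at any later stage, a difference between stages that was not tested. The mean centre was also lowest in GV oocytes for BAX (4.33) and BAD (4.93), but their GV gradients overlapped those of some later stages. Without TMM factors morulae lay below GV oocytes for BAX (4.69 against 4.73) and BAD (5.14 against 5.44). Over F3 to F10 alone, BAX was lower in 8-cell embryos (5.32 against 5.65) and BAD in morulae (5.95 against 6.77). BID gradients of GV oocytes (6.13 and 6.40) and morulae (6.21 and 6.49) then overlapped. The centre of BAK1 was 5.005 ± 0.02 (SD, n = 2) in GV, 6.59 ± 0.11 in MII and 7.53 ± 0.10 in 2-cell stages, and its share in F8 to F10 was 20.9%, 44.8% and 61.4%. It was 6.56 ± 0.11 in 8-cell, 6.03 ± 0.93 in morula and 6.83 ± 0.21 in blastocyst stages. BID had a centre of 4.40 ± 0.40 in GV oocytes, with 39.7% of its CPM in F1 and F2, and of 6.20 ± 0.19 in MII, 6.33 ± 0.23 in 2-cell and 6.36 ± 0.24 in 8-cell stages. Its centre was 5.64 ± 0.44 in morulae and 6.56 ± 0.49 in blastocysts, and its share in F8 to F10 was 48.8% in 8-cell, 25.5% in morula and 41.9% in blastocyst stages. The gradients of GV and MII oocytes were apart for BAK1 and BID.

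MCL1 and BCL2L1 took opposite places in 8-cell gradients. The centre of MCL1 was 7.20 in gradient A and 7.14 in gradient B, with 55.6% and 60.6% of its CPM in F8 to F10. At the other stages its mean centre lay between 4.77 and 5.88. The centre of BCL2L1 was 4.73 and 4.92 in 8-cell gradients, with 20.6% and 16.7% of its CPM in F8 to F10, and 5.50 to 6.11 at the other stages. BAX was light in most gradients, with mean centres of 4.33 in GV, 4.70 in MII, 5.09 in 2-cell, 4.73 in 8-cell, 4.56 in morula and 5.65 in blastocyst stages. The 2 gradients of a stage differed widely for several members. The SD of the centre reached 1.41 for BAD and 1.203 for BAX in MII oocytes, 1.196 for BCL2L11 in morulae and 1.16 for MCL1 in GV oocytes.

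Heavy pools (F8 to F10) were tested against light pools (F3 to F5) of the same gradients. The main fit compared group means and did not pair the pools of a gradient. With a block for each gradient, the number of member calls was also 3. In simulated 8-cell pools this test recovered 0 of 50 genes changed 4-fold and 15 of 50 changed 16-fold. Only the changed genes differed there, 50 for each fold size, whereas 1391 genes passed in the real 8-cell pools. With more genes passing, smaller changes can reach an adjusted p of 0.05, so these rates need not hold here. With 2 gradients per stage, a missing call still says little. Of 42 member tests, 3 passed, all in 8-cell embryos and all towards heavy fractions, where 9.35% of 14873 genes passed and 4.55% did so towards heavy fractions. These were BAK1 (log2 1.86 ± 0.45, edgeR adjusted p = 0.019), MCL1 (1.85 ± 0.53, edgeR adjusted p = 0.038) and BID (1.51 ± 0.46, edgeR adjusted p = 0.046). BCL2L1 in 8-cell embryos was at -1.23 ± 0.42 and did not pass (edgeR adjusted p = 0.070), but DESeq2 called it (-1.32, adjusted p = 0.0052). At the other stages 0 of 7 members passed edgeR, and of all genes 0.498% passed in GV, 0.437% in MII, 0% in 2-cell, 1.59% in morula and 1.43% in blastocyst stages. At an unadjusted p under 0.05 there were 2 members each in MII and 2-cell stages and 0 in the rest, and DESeq2 called 1, BAK1 in 2-cell embryos (1.79, adjusted p = 0.0046). The calls are narrow, because without heavy pool A or light pool B of the 8-cell stage 0 of 3 remained, and of 24 fits that each left out 1 pool, 13 lost BID and 10 lost MCL1. Against F1 and F2 in place of F3 to F5, none of these 3 passed in 8-cell embryos (log2 1.40, 1.86 and 0.97 for BAK1, MCL1 and BID).

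**Figure D4:**
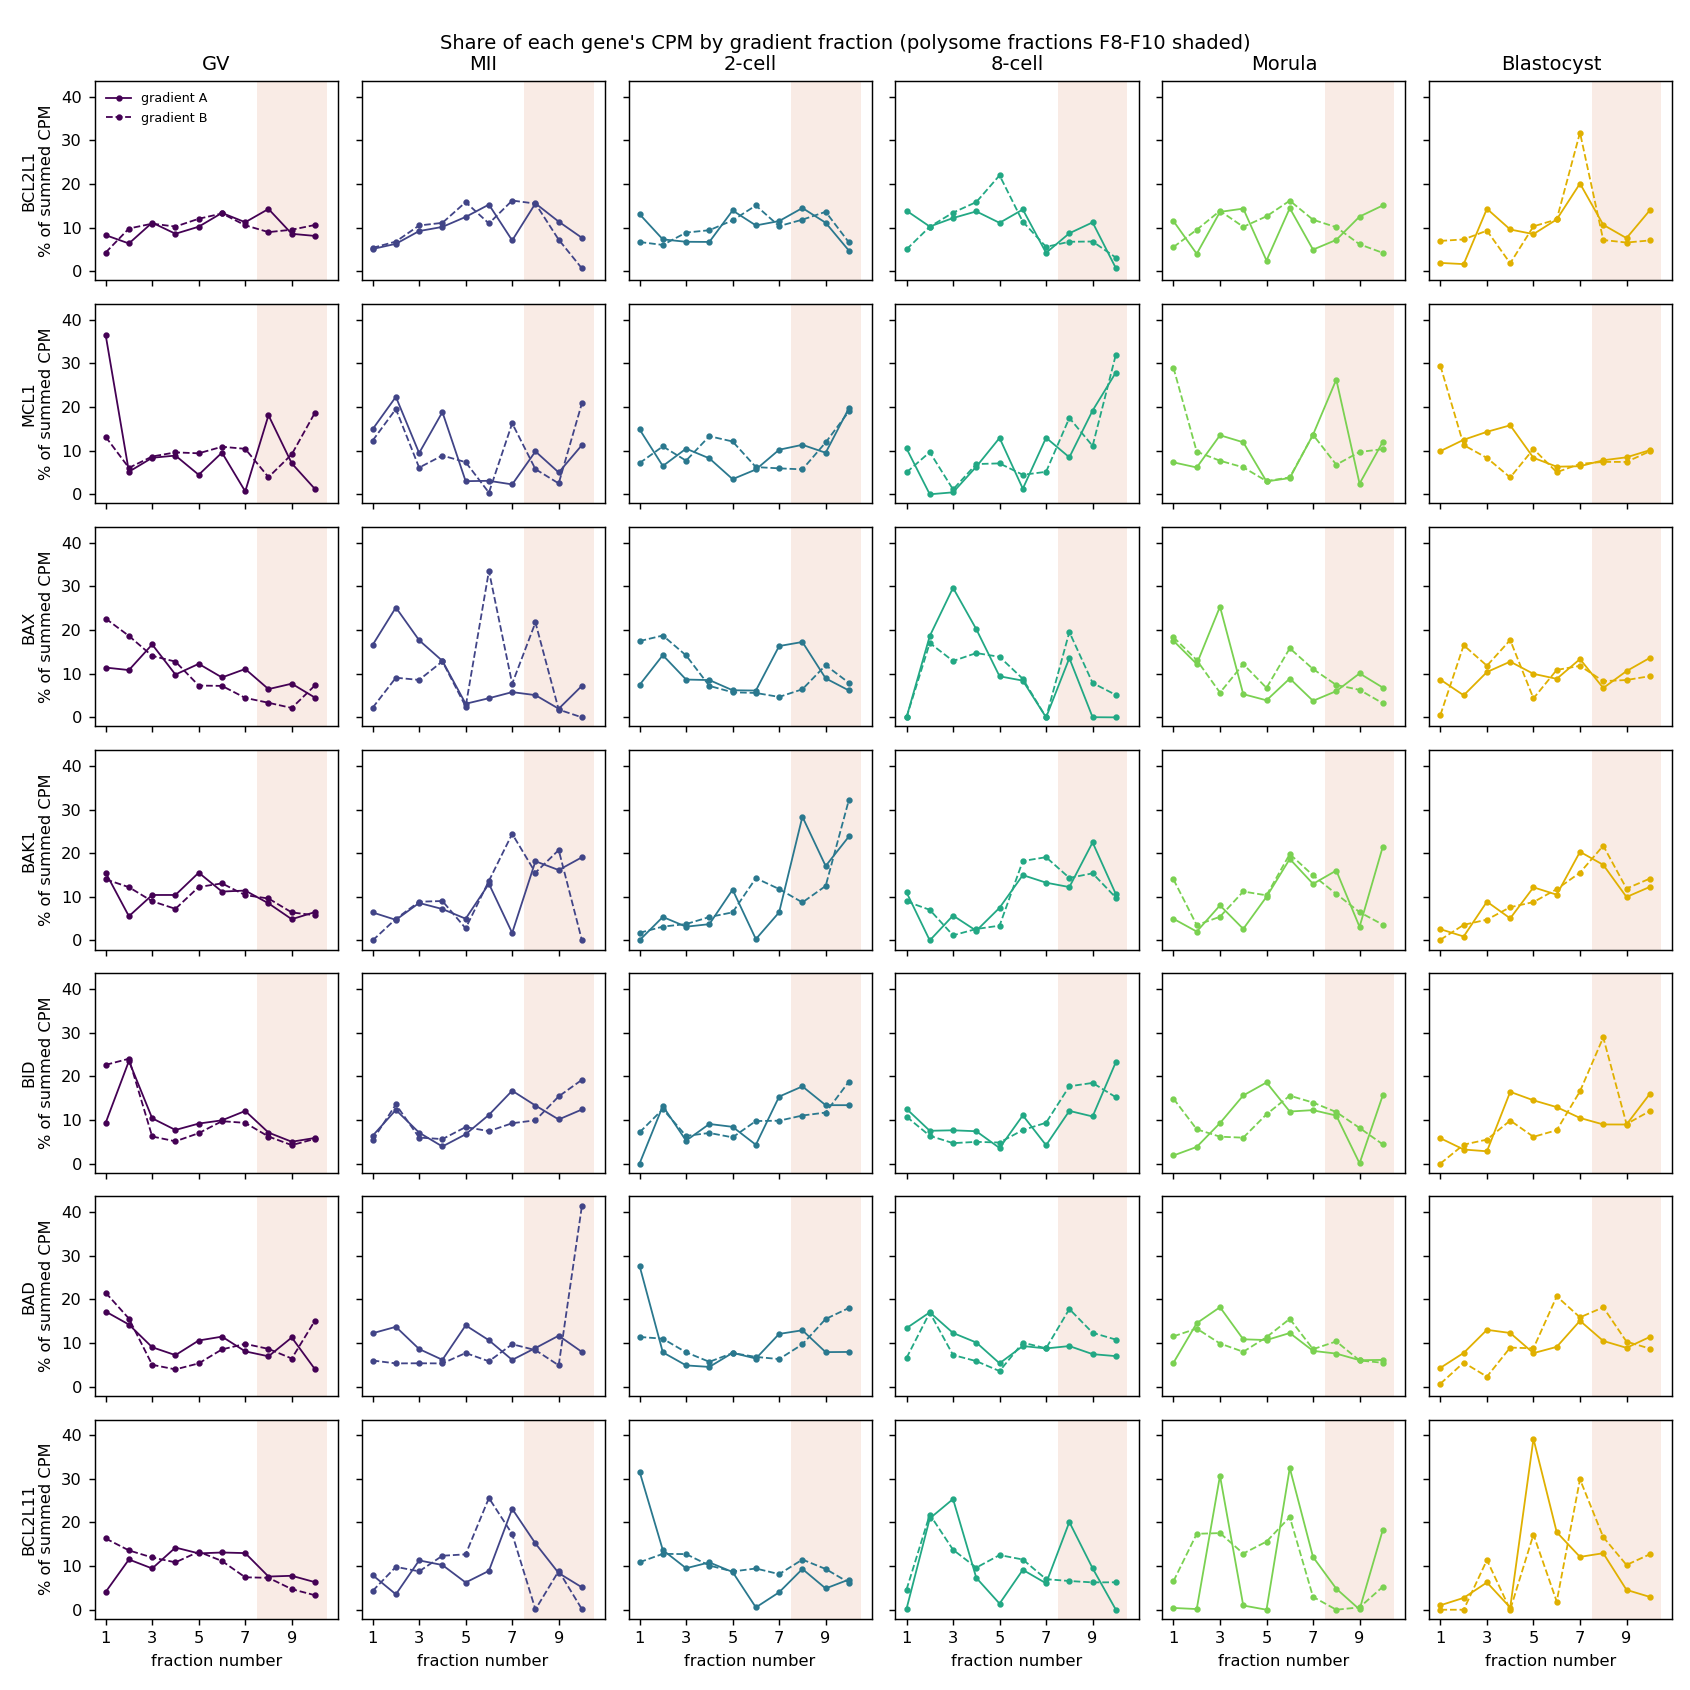
Share of each member's CPM (percent of the sum over F1 to F10) by fraction number at 6 stages, with a line for each gradient (A solid, B dashed) and F8 to F10 shaded. In 8-cell embryos MCL1 holds 55.6% and 60.6% of its CPM in the shaded fractions and BCL2L1 20.6% and 16.7%.

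Beyond the members, 54 genes of the same pathway were listed in 5 groups, of which 51 had a row and 50 were tested. From 2-cell to 8-cell transcriptomes, 18 rose and 11 fell, where 52.3% of all genes passed, a share near that of the list, with a median log2 change of 0.50 beside 0.03 for all genes. DIABLO, which leaves mitochondria to neutralise inhibitors of apoptosis proteins, rose from 4.79 to 7.27 CPM to 173 to 192 CPM (log2 4.94 ± 0.35, edgeR adjusted p = 7.6e-11), and CASP6, an executioner caspase, fell from 517 to 674 CPM to 53.3 to 89.1 CPM (log2 -3.07 ± 0.78, edgeR adjusted p = 0.0021). From morula to blastocyst, 5 of the 50 rose and 12 fell, where 23.2% of all genes passed (median -0.29 beside -0.01). AIFM1, a flavoprotein released from mitochondria, rose from 8.94 to 21.6 CPM to 59.1 to 75.3 CPM (log2 2.27 ± 0.71, edgeR adjusted p = 0.022). BNIP3, a mitophagy receptor, fell from 20.9 to 23.9 CPM to 0.829 to 1.47 CPM (log2 -4.25 ± 0.44, edgeR adjusted p = 3.4e-07), and PMAIP1 (NOXA), a BH3-only protein that binds MCL1, fell from 22.7 to 26.4 CPM to 1.18 to 3.001 CPM (log2 -3.66 ± 0.96, edgeR adjusted p = 0.0068).

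The same pathway genes were set against the transcriptome in polysomes. At the GV stage 5 of 50 were higher and 15 lower, at MII 10 and 20, in 2-cell 8 and 21, in 8-cell 12 and 24, in morula 12 and 14, and in blastocyst stages 12 and 8. The shares of all genes that passed in either direction were 39.8%, 57.5%, 51.0%, 59.1%, 51.7% and 40.1%. Their median log2 difference was -0.63, -0.81, -0.84, -1.27, -0.32 and 0.00, beside 0.00, 0.00, 0.18, -0.26, 0.00 and -0.08 for all genes. Whether they differ from the members was not tested. CASP2 was higher in polysomes of 2-cell embryos, with 666 and 701 CPM against 29.2 to 49.8 CPM (log2 4.19 ± 0.32, edgeR adjusted p = 4.9e-10). CYCS, cytochrome c itself, was lower in GV oocytes, with 43.4 and 44.9 CPM against 343 to 489 CPM (log2 -3.26 ± 0.44, edgeR adjusted p = 2.6e-06). CASP8 had 0 counts in both 8-cell polysome pools and 3.58 to 8.57 CPM in 8-cell transcriptomes. The mean of these transcriptomes (5.588 CPM) was 54.7-fold above the mean floor of 3 counts per pool (0.102 CPM). This is a ratio of means and not a lower bound, and the floor covers counting error only.

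Over the 30 pools and transcriptomes, the genes with the most similar course were named for each member by Pearson's r of log2(CPM + 1). This is a description, since the points share stages and library types. BAK1 was closest to SLC25A6 (0.986) and URM1 (0.978), MCL1 to SSR1 (0.969) and MLLT10 (0.967), and BCL2L1 to BICDL2 (0.962) and L3MBTL2 (0.957). BID was closest to PUF60 (0.960) and DHRS7B (0.956), BAD to TIMM50 (0.952) and ZMAT5 (0.948), BAX to DDIT4 (0.912) and PITX1 (0.884), and BCL2L11 to ASB1 (0.815) and DNAJB1 (0.788). Among the members themselves, BAX and BAK1 had r = 0.844 and BAK1 and BCL2L1 r = 0.827, whereas MCL1 and BCL2L1 had r = -0.303.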

How the data were processed

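Libraries of 10 gradient fractions (2 gradients per stage) and of whole oocytes or embryos (3 transcriptomes per stage) were prepared from low-input RNA and sequenced as 150-bp pairs. The authors quantified reads with Salmon and deposited unnormalised expected counts for 16706 gene symbols in 138 libraries, of which 11.7% were not whole numbers. The submitters' processing notes name the genome build UMD3.1, whereas the study's methods name a later bovine assembly, so no coordinates are given. All 138 columns were used and matched to samples by title.

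Expected counts were rounded to whole numbers. The counts of F8 to F10 were summed per gradient, and the 12 pools and 18 transcriptomes were fitted together in edgeR 4.0.16 (R 4.3.3, limma 3.58.1) with TMM factors, filterByExpr and the quasi-likelihood F test on 14612 genes, with 18 residual degrees of freedom. F8 to F10 against F3 to F5 was fitted on 24 pools and 14873 genes. Adjusted p-values are Benjamini-Hochberg values over all genes of a contrast, with a threshold of 0.05, and the SE is the log2 fold change divided by the square root of F. Alternatives were the likelihood ratio test, DESeq2 1.42.0, other scalings, filters and fraction limits, a fold limit of 2, a replicate block, and leaving out each library. Procedures were tested on simulated data. Figures used Python 3.11.15 and matplotlib 3.10.9.

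The members and lists were chosen with earlier results of these data known. All members are named. Of the pathway lists, at most 2 genes per direction with the largest change past the threshold are named for 2 transcriptome steps and for polysomes against transcriptome, and the 2 genes with the highest correlation are named for each member. BCL2L10 and BBC3 were not analysed here. For 1 pathway gene that the naming rule picked, values are not reported here. Among 78 pairs of replicate libraries 0 were identical. Transcriptomes came from the batches used for gradients, but no source ties a letter of one to the same letter of the other, and the correlation of their deviations from the group means lay between -0.0687 and 0.0355. Heavy and light pools come from the same gradient, with correlations between -0.0774 and 0.169.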

Additional observations from a re-analysis of the deposited data

Results flagged for a closer look

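For 10 of 35 tests, the log2 change of a member between consecutive stages differed between polysome pools and transcriptomes, by an interaction term in the edgeR model (Benjamini-Hochberg adjusted p over 14612 genes, polysome change minus transcriptome change). From GV to MII oocytes the difference was 1.79 ± 0.48 (SE) for BCL2L1 (edgeR adjusted p = 0.015), -2.09 ± 0.41 for MCL1 (0.0012), 3.68 ± 0.38 for BID (1.4e-06) and 2.54 ± 0.58 for BAD (0.0047). From MII oocytes to 2-cell embryos it was 3.19 ± 0.41 for MCL1 (edgeR adjusted p = 0.00024) and -1.46 ± 0.37 for BID (0.042). From 2-cell to 8-cell embryos it was -1.33 ± 0.40 for MCL1 (edgeR adjusted p = 0.030), and without 8-cell transcriptome A, the library with the high cumulus marker sum, -1.01 (0.095). From 8-cell embryos to morulae it was -1.72 ± 0.57 for BAK1 (edgeR adjusted p = 0.050) and -1.10 ± 0.36 for BID (0.048), and without 8-cell transcriptome A -1.84 (0.062) and -1.17 (0.052). Of 30 fits that each left out 1 library, 23 lost the BAK1 and 24 the BID call at this step, and 19 lost the BID call from MII oocytes to 2-cell embryos. From morulae to blastocysts it was -2.31 ± 0.56 for BAK1 (edgeR adjusted p = 0.0099). Steps that share a stage share its libraries.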

How the results depend on the processing

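Leaving out each library in turn gave 14 to 18 member calls between stages in transcriptomes (17 with all libraries), 10 to 15 in polysomes (11), 34 to 38 for polysomes against transcriptome (36), 5 to 11 for the difference of the changes (10) and 0 to 3 for heavy against light fractions (3). DESeq2 gave 18 calls between stages in polysomes and 5 for heavy against light fractions, where Spearman's rho over F3 to F10 gave 9 of 42. DESeq2 calls between stages in polysomes over all genes were 20378, against 16461 with edgeR. Spearman's rho called 4255 of 11594 genes in GV, 2240 of 11612 in MII and 2343 of 11546 in 2-cell stages. It called 2000 of 11975 in 8-cell, 192 of 11504 in morula and 839 of 11047 in blastocyst stages. The rank test treats the fractions of a gradient as independent samples, which they are not. Its 9 calls include falls towards heavy fractions for BAX (rho -0.73) and BCL2L11 (-0.69) in GV oocytes and BCL2L1 (-0.77) in 8-cell embryos. The others are rises, for BID in MII, BAK1, BID and BAD in 2-cell, and MCL1 and BID in 8-cell stages. BAK1 in 8-cell embryos, called by edgeR, did not pass the rank test (rho 0.60, Spearman adjusted p = 0.076). With F1 and F2, chosen after seeing the data, 5 calls were made for the difference of the changes and 1 for heavy against light fractions. Calls over all genes went from 7214 to 9769 and from 1979 to 1062. F1 and F2 in place of polysomes changed the sign of the step from GV to MII for BID (-2.02) and BAK1 (-2.82). In polysomes these steps were 0.59 and 0.37 and did not pass. Against the transcriptome of blastocysts the sign changed for BCL2L11 (-1.10) and BAK1 (-0.098). Neither of these passed with F1 and F2 (edgeR adjusted p = 0.38 and 0.95). F3 to F5 in place of polysomes changed the sign of the steps of BAK1 from GV to MII (-1.71) and BCL2L1 from 2-cell to 8-cell (0.33). The sign also changed for BID from 8-cell to morula (0.17) and for its difference of changes at that step (0.65). BCL2L11 against the transcriptome of morulae was -1.72 without morula pool A and 1.28 without pool B. The cause was not tested.

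No source says that the letters of polysome pools and transcriptomes pair samples. With the replicate block, member calls numbered 17, 10, 35, 7 and 3 in the order above. Those lost were the difference of the changes of BAK1 and BID from 8-cell to morula and of BID from MII to 2-cell (edgeR adjusted p = 0.072, 0.068 and 0.066), BAD in polysomes from morula to blastocyst (0.061) and BCL2L11 against the transcriptome of blastocysts (0.069). Over all genes, summed calls moved from 17940 to 34046 between stages when only transcriptomes were fitted. For the difference of the changes they moved from 7214 to 10894 (likelihood ratio test), 11324 (DESeq2), 13598 (F3 to F10) and 14714 (F3 to F5), and left-out libraries gave 5910 to 14138. For heavy against light fractions they moved from 1979 to 6324 (likelihood ratio test), 8467 (DESeq2), 11869 (Spearman) and 1062 (F1 and F2), and left-out libraries gave 1033 to 3487. Without TMM factors the share of upward calls went from 41.4% to 17.4% in transcriptomes from GV to MII and from 49.5% to 78.8% from MII to 2-cell, with all-gene medians of -0.29 and 0.47, and in polysomes from 56.7% to 26.3% and from 39.7% to 62.1%. Depth limits BCL2 and, in oocyte transcriptomes, BAK1.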
